A study of Mus musculus with 14 samples.

Results

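The M8/F8 comparison set liver RNA of 8 wk male CD-1 mice (M8) against liver RNA of 8 wk female CD-1 mice (F8), both labelled with a fluorescent dye, on 2 of the 14 Agilent whole mouse genome arrays of the series. CD-1 is an outbred mouse strain. The 2 arrays were chosen by the labels of their channels, and they are all the arrays on which M8 and F8 RNA met. The series compared the sexes in liver of 3, 4 and 8 wk old mice, and each sex at 8 wk with itself at the younger ages. M8/F8 addressed the difference between the sexes in young adult liver, and the younger sex comparisons M4/F4 (4 wk) and M3/F3 (3 wk) are used here only to set the adult difference beside it. Each array held 1 pool of M8 RNA and 1 pool of F8 RNA, each pool was made from 6 mice, and the mice carried no treatment or engineered allele. Total RNA was extracted with Trizol and amplified before labelling. On the first array, replicate 1, M8 carried the red Alexa dye and F8 the green one, and on the second, replicate 2, the dyes were exchanged and other pools were used. The p-values therefore measure the spread between pooled samples, and arrays of pools do not measure the spread between single mice.

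Sex differences in rodent liver depend largely on growth hormone (GH), which the pituitary of the adult male releases in pulses separated by intervals of near absence, and that of the female more continuously. GH acts through its receptor and the kinase JAK2 on the transcription factor STAT5. The study describes the sex pattern of release as imprinted in newborns, seen only from puberty, and regulated by estrogen and testosterone. The genes concerned are best known among enzymes of steroid, bile acid and drug metabolism, the transporters that go with them, and secreted proteins such as the major urinary proteins.

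All values are log2 ratios of M8 over F8, so that a positive value means a higher signal in M8. Of 43020 spots that were not controls, 66.5% in M8 and 61.1% in F8 were well above background on replicate 1, and 56.4% in M8 and 63.0% in F8 on replicate 2. Signals on an array have no depth, and the number of arrays limits the precision. A single limma model was fitted to all 14 arrays, holding the 7 comparisons and a term for dye bias in every probe, and the standard errors (SE) given here come from it. A call required an adjusted p below 0.05, a difference of more than 1.5-fold in either direction, and that M8 or F8 be well above background on both arrays. Called genes are termed male-specific where higher in M8 and female-specific where higher in F8. The dye, the slide and the replicate number changed together between the arrays, so their parts in a difference between the arrays cannot be told apart from these arrays alone.

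Among 13526 genes bright enough to be tested, 868 were called in M8/F8, which is 6.42% of them. The 361 male-specific genes were 2.67% and the 507 female-specific genes 3.75% of the genes tested. Counts called in the lists below are to be read beside these shares, against which no list was tested. The male-specific genes were fewer, but their median log2 ratio was 1.07, against -0.86 for the female-specific genes, and 70 of them differed by more than 4-fold, against 61 female-specific genes. Differences above 16-fold were seen in 11 male-specific genes, against 21 female-specific ones. The median log2 ratio of all genes tested was 0.00. These calls rest on a spread estimated from all 14 arrays: a limma fit of the 2 M8/F8 arrays alone called 0 genes (smallest adjusted p = 0.302), although 1338 genes higher in M8 and 1478 higher in F8 had an unadjusted p below 0.05. The fit takes the arrays as independent, although RNA of the same groups of M8 and F8 mice recurs on the arrays that compare ages. The study's methods do not state whether the pools were the same. With same-numbered arrays taken to share pools, the variance between pools was estimated at 4.59 times that between arrays. With the shared pools in the covariance, 337 genes were higher in M8 and 448 in F8, and 13 of 223 called genes followed singly lost the call. The ratios had the same sign on both arrays for 99.9% of called genes, which a call from the mean of these arrays largely fixes. Genes of both groups lay close to the diagonal in the plot of replicate 2 against replicate 1, and this is no independent replication.

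**Figure D1:**
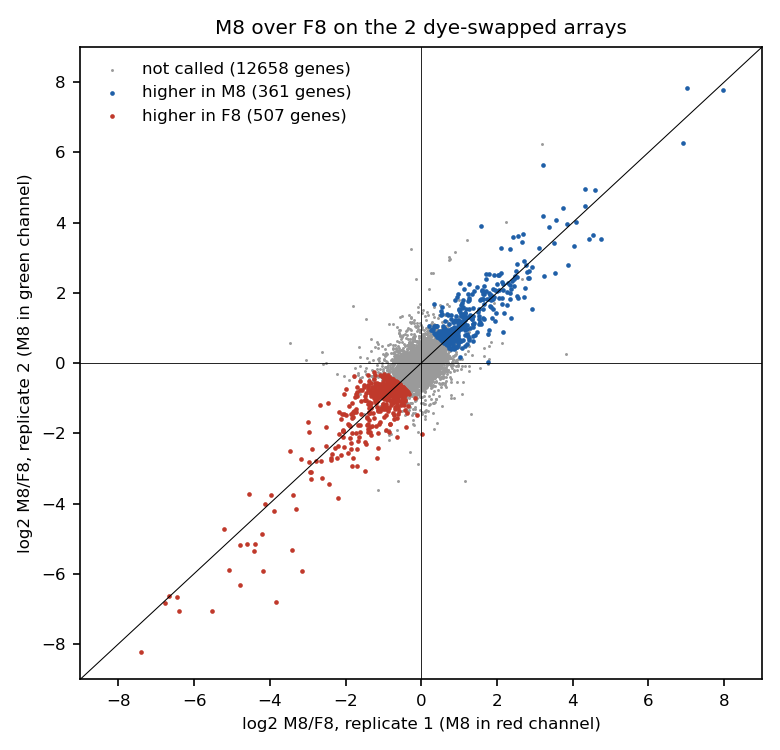
Log2 M8/F8 of each gene tested on replicate 1 (horizontal axis) and on replicate 2 (vertical axis), with 361 genes called higher in M8 in blue, 507 called higher in F8 in red and the others in grey. Called genes spread along the diagonal in both directions.

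Among genes well above background in both sexes on both arrays, the 12 largest male-specific ratios belonged to genes of varied function, Ddx3y of the Y chromosome included. Cyp4a12a, a P450 enzyme that hydroxylates fatty acids, had log2 ratios of 4.60 and 4.94 on replicates 1 and 2. Both pairs of pools were far above 0, and the fitted ratio was 4.77 (SE 0.56, adjusted p = 0.0023), a 27.3-fold difference. Nat8f5, a member of the Nat8 family of acetyltransferases, had 4.32 and 4.96 (fitted 4.64, SE 0.33, adjusted p = 0.000387). Mup20, also called darcin, is the major urinary protein that carries a male scent signal and acts as a pheromone itself. Its log2 ratios were 4.75 and 3.54, or 4.14 in the fit (SE 0.24, adjusted p = 0.000211), a 17.7-fold difference. Elovl3, an elongase of long saturated fatty acids, had 4.04 and 3.34. Gstp2 and Gstp1, pi class glutathione S-transferases with very similar transcripts, had 4.43 and 3.52, and 3.86 and 2.78. Cspg5, a membrane proteoglycan, had 3.50 and 3.42, the closest agreement among these genes after Cyp4a12b, the close relative of Cyp4a12a, with 4.08 and 4.01. The laminin chain gene Lama3 (3.23 and 4.19), the oxidase gene Nox4 (2.69 and 3.67) and the ciliary gene Cfap53 (3.22 and 5.65) completed the list. The call of Cfap53 (adjusted p = 0.0399) was lost without replicate 1 (5.48) and without replicate 2 (3.39), that of Elovl3 without replicate 1 (3.45), and that of Nox4 without replicate 2 (2.57).

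**Figure D2:**
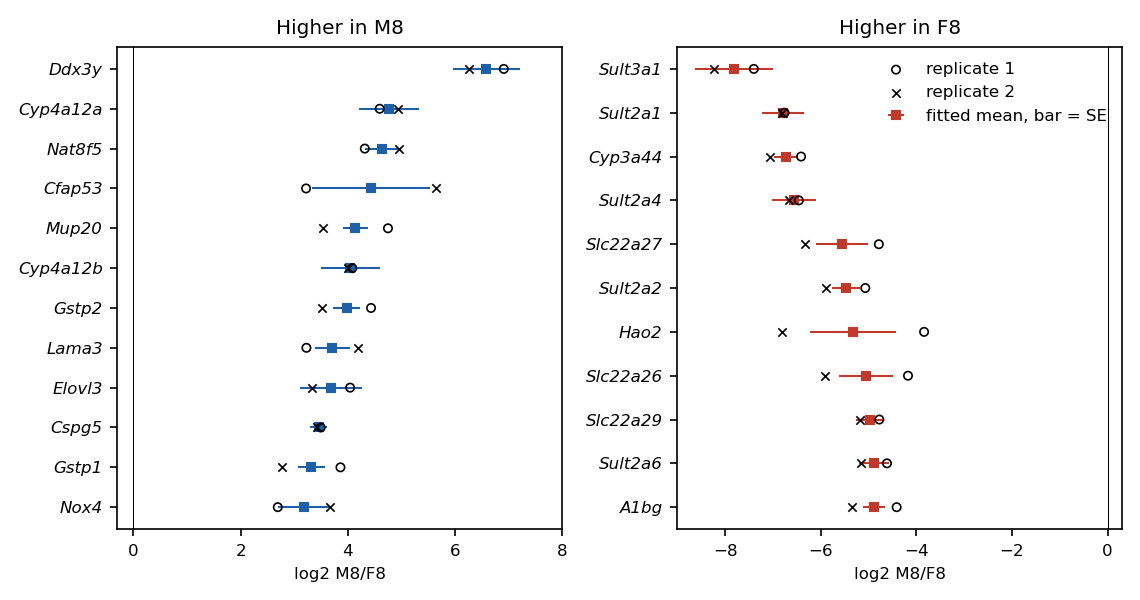
The largest log2 M8/F8 ratios, 12 higher in M8 and 11 higher in F8, among called genes whose M8 and F8 signals both exceeded background, with replicate 1 as circles, replicate 2 as crosses, and the fitted ratio with its standard error as squares and bars. All points lie on one side of 0, as the choice of the genes required, Hao2 and Cfap53 with the widest gaps between the arrays.

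By the same limit on background, the largest female-specific ratios included those of sulfotransferases, which attach sulfate to steroids, bile acids and drugs. Sult3a1 had log2 ratios of -7.40 and -8.22 on replicates 1 and 2 (fitted -7.81, SE 0.82, adjusted p = 0.00155), a 225-fold difference. Sult2a1, a hydroxysteroid sulfotransferase, had -6.76 and -6.82 (fitted -6.79, SE 0.45, adjusted p = 0.000318). The other Sult2a members among the 12 were Sult2a4 (-6.46 and -6.66), Sult2a2 (-5.07 and -5.88) and Sult2a6 (-4.61 and -5.16). Cyp3a44, a P450 of the steroid and drug oxidizing Cyp3a group, had -6.41 and -7.05 (fitted -6.73, SE 0.26, adjusted p = 7.74e-05). Slc22a27, Slc22a26 and Slc22a29, transporters of the organic anion family, had -4.78 and -6.32, -4.17 and -5.92, and -4.77 and -5.18. A1bg, a secreted plasma glycoprotein, had -4.41 and -5.35, and Hao2, a peroxisomal hydroxyacid oxidase, -3.84 and -6.81. The same sign on both arrays was a condition for this list and for the male-specific one, so that agreement is no result. The call of Hao2 was lost without replicate 2, where its log2 ratio was -3.35 (adjusted p = 0.06503).

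Several of these genes have near-identical copies, and a probe can bind RNA of more than 1 of them. The probes of the Sult2a genes are shown as an example, because 5 of the 12 largest female-specific ratios came from sulfotransferases. A 30-base stretch of each probe is given 5′ to 3′, with capitals where it differs from the Sult2a1 probe. The first Sult2a4 probe has 51 of 54 aligned bases in common with it, and a further Sult2a2 probe, whose log2 ratio was -6.66, has 54 of 59.
Sult2a1 probe: ttgttgtgtatcttgaatacctagatgtgg
Sult2a4 probe: ttgttCtgtatcttgaatacctagatgtgg
Sult2a2 probe: ttgttCtAtatcttgaatacctGAatAtgg
The ratio of a family is therefore better determined than that of each copy. Another probe of Sult2a4 gave -3.82, so probes of 1 gene differed in size while keeping the direction.

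The sex chromosomes gave a check of the labels. The Y chromosome genes Eif2s3y (well above background in F8 on 1 array only), a translation initiation factor subunit, and Ddx3y, an RNA helicase, had log2 ratios of 7.96 and 7.78, and of 6.91 and 6.26 on replicates 1 and 2 (adjusted p = 0.000226 and 0.0011). Uty, a histone demethylase gene of the Y chromosome, was not well above background in F8 and was at least 12.3-fold higher in M8 (adjusted p = 5.37e-05). Xist, the RNA that silences an X chromosome in females, was not well above background in M8 and was at least 9.53-fold higher in F8 (adjusted p = 0.000247). Of 7 Y chromosome genes with a probe, 4 were tested and 3 called. Zfy1 had 1.16 and -3.37 on the arrays and was not called, Usp9y and Zfy2 were not well above background in either sex, and Kdm5d was above it on 1 array of M8 only. Of 11 X chromosome genes of inactivation and escape, 2 were female-specific. The second was Jpx, an RNA that activates Xist, with -0.61 and -0.62, and its ratio passed 1.5 only narrowly. Without replicate 2 it was -0.56 and the call was lost. The escape genes Eif2s3x (-0.54), Kdm6a (-0.43), Kdm5c (-0.31) and Ddx3x (-0.29) were below the threshold of 1.5-fold, and so were Usp9x (0.30), Utp14a (0.36) and Uba1 (0.09) with ratios above 0. Another Kdm5c probe was at 0.05. A further Eif2s3x probe gave 1.98 in the opposite direction, so the probes of this gene disagree. Chromosome X as a whole had 10 male-specific and 18 female-specific genes among 439 tested, which is 6.38% and close to the share of all genes.

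P450 enzymes were called in both directions. In family 2, whose members oxidize drugs and steroids, 7 of 38 genes tested were male-specific and 14 female-specific, with a median log2 ratio of -0.09. The longest run of adjacent female-specific genes was in the Cyp2c cluster on chromosome 19, where 8 of 11 genes tested were called: Cyp2c29, Cyp2c39, Cyp2c38, Cyp2c67, Cyp2c68, Cyp2c37, Cyp2c54 and Cyp2c50. Cyp2c37 had -2.94 and -3.09 on replicates 1 and 2 (fitted -3.02, SE 0.16, adjusted p = 0.000164), and another of its probes -1.62. Cyp2c38 was at -0.83 by its brightest probe and at -3.23 by another, so the order of the genes within the run depends on the probe. On chromosome 7 the neighbours Cyp2b10, Cyp2b13, Cyp2b9, Cyp2a4, Cyp2g1 and Cyp2a22 were all female-specific. Cyp2b9 had -4.22 and -4.88 (fitted -4.55, SE 0.25, adjusted p = 0.000189), and Cyp2b10, the classic target of the drug-sensing receptor CAR, had -2.11 and -2.62. The male-specific members were led by Cyp2d9, a testosterone 16-alpha-hydroxylase, with 2.03 and 2.51 (fitted 2.27, SE 0.22, adjusted p = 0.00117). Cyp2u1, a fatty acid hydroxylase, had 1.73 and 1.82, and Cyp2f2, an enzyme of periportal hepatocytes and lung, 1.27 and 0.72. Without replicate 2 Cyp2c67 was at -1.20 and lost its call. Family members other than the largest are named here for their place in the gene clusters and were picked after their values were seen.

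In the Cyp4a group, which hydroxylates fatty acids, genes of opposite direction stood side by side. Of 8 genes of the Cyp4a and Cyp4b cluster on chromosome 4, 3 were male-specific and 4 female-specific, and in the order of the genes in RefSeq (GRCm38.p6) each set was adjacent. Cyp4a12a and Cyp4a12b (given above) were followed by Cyp4a30b, which was not well above background in F8 and was at least 1.78-fold higher in M8 (adjusted p = 0.000532). Then came Cyp4a14 with -1.49 and -3.08 on replicates 1 and 2 (fitted -2.29, SE 0.33, adjusted p = 0.00539), Cyp4a10 with -1.94 and -2.55, Cyp4a31 with -1.62 and -1.97, and Cyp4a32, which was fitted at -1.11. Cyp4a14 and Cyp4a10 are known targets of PPARalpha, the fatty acid sensing receptor. Probes of Cyp4a10 and Cyp4a31 are also alike. The stretches below are from a further Cyp4a10 probe (log2 ratio -1.84) and from the Cyp4a31 probe (-1.79), which share 44 of 47 aligned bases, with capitals at the differences.
Cyp4a10 probe: atcttccctcctttctgcaataaagttccc
Cyp4a31 probe: atcttccctcctttctgcaataaagGtccA
Another Cyp4a10 probe was called at -0.73, so the size of its ratio depends on the probe. A different probe of Cyp4a31 gave 0.34 and was not called.

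**Figure D3:**
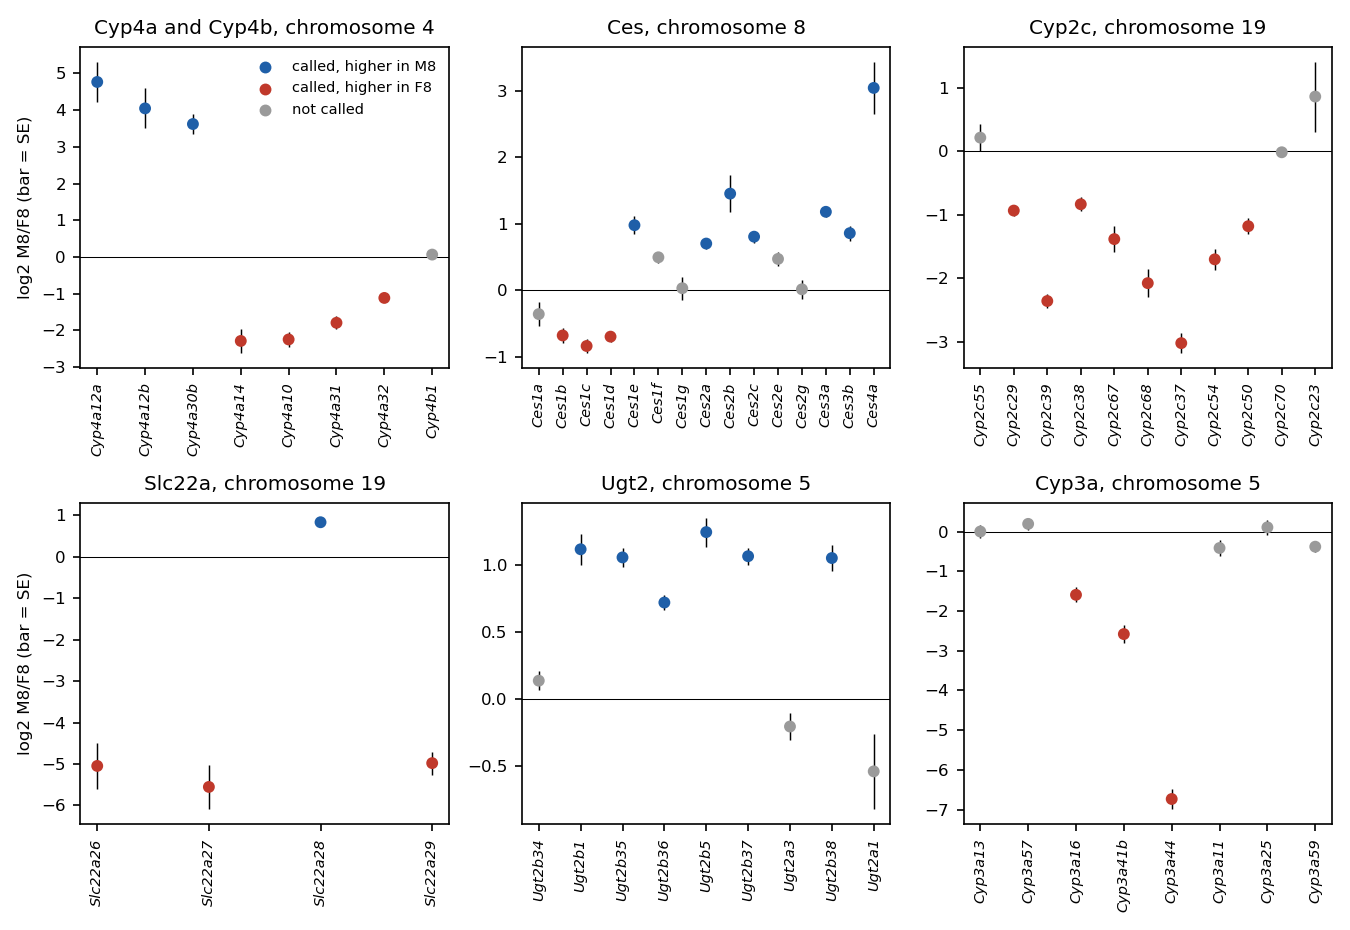
Log2 M8/F8 with its standard error for genes of 6 clusters, in the order of the genes on the chromosome, blue for genes called higher in M8, red for genes called higher in F8 and grey for genes not called. Male-specific and female-specific genes form adjacent blocks in the Cyp4a and Ces clusters; the fitted point of Cyp4a30b is no bound, since the gene was not well above background in F8.

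In the Cyp3a cluster on chromosome 5, 3 of 8 genes were female-specific, and they were neighbours. Cyp3a16 had -1.79 and -1.39, Cyp3a41b -2.39 and -2.77, and Cyp3a44 -6.41 and -7.05 on replicates 1 and 2. Cyp3a11, the most studied Cyp3a enzyme of mouse liver, had a fitted ratio of -0.41 and was not called. The 150 bases before the start of these genes are shown because the 3 female-specific genes have almost the same sequence there. The study describes the Cyp3a16 probe as also binding RNA of Cyp3a11, so its ratio is not that of Cyp3a16 alone. Sequences are from RefSeq (GRCm38.p6), 5′ to 3′ on the strand of the gene, which is minus for all, with capitals at bases that differ from Cyp3a44. Compared without gaps, Cyp3a16 shares 144 and Cyp3a41b 141 of 150 bases with Cyp3a44, whereas Cyp3a11 shares 87.
Cyp3a44, chr5:145805875-145806024: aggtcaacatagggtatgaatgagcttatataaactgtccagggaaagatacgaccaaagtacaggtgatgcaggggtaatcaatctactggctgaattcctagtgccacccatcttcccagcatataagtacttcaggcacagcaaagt
Cyp3a16, chr5:145469728-145469877: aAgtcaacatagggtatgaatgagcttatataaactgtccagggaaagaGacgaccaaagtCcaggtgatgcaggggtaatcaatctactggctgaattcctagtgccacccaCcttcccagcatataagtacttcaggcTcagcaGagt
Cyp3a41b, chr5:145584731-145584880: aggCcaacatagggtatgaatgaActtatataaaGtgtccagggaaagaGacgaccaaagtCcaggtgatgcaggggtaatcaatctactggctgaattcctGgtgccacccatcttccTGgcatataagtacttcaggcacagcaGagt
The Cyp2b genes are also alike. Over the same 150 bases, on the plus strand of chromosome 7, Cyp2b13 (log2 ratio -2.73) differs from Cyp2b9 (-4.55) at 1 base and Cyp2b10 (-2.36) at 48 bases.
Cyp2b9, chr7:26173259-26173408: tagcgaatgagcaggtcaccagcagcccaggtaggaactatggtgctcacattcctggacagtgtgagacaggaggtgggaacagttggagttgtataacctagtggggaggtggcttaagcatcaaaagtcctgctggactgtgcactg
Cyp2b13, chr7:26061345-26061494: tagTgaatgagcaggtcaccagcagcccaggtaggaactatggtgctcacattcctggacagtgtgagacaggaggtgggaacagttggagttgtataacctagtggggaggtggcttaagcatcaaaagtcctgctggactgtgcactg

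Enzymes of bile acid synthesis were called in both directions, 3 male-specific and 3 female-specific among 16 genes tested (median log2 ratio 0.16). Cyp7a1, the rate-limiting enzyme of the classic pathway, had -1.81 and -1.41 on replicates 1 and 2 (fitted -1.61, SE 0.21, adjusted p = 0.00327). Cyp7b1, the oxysterol hydroxylase of the alternative pathway, went the other way with 2.71 and 2.90 (fitted 2.81, SE 0.46, adjusted p = 0.00861). Cyp39a1, a hydroxylase of 24-hydroxycholesterol, had -1.42 and -1.76, and Cyp46a1, which makes 24-hydroxycholesterol, had 1.09 and 1.56. Scp2, a sterol carrier and peroxisomal thiolase, was male-specific at 0.83 and Akr1d1, the steroid 5-beta-reductase, female-specific at -0.77. The call of Cyp7b1 was lost without replicate 2 (2.54, adjusted p = 0.08048).

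Among 28 enzymes of steroid metabolism tested, 2 were male-specific and 3 female-specific. Hsd3b1, a 3-beta-hydroxysteroid dehydrogenase, had -3.42 and -5.32 on replicates 1 and 2 (fitted -4.37, SE 0.43, adjusted p = 0.00124), a 20.7-fold difference. Its relative Hsd3b2 was male-specific with 1.05 and 1.39. Cyp17a1, which makes androgen precursors, had -2.87 and -2.44, and Akr1c18, which inactivates progesterone, -0.92 and -1.91. Srd5a1, a steroid 5-alpha-reductase, had 0.81 and 0.98. Hsd3b5, a liver form of the enzyme, had 1.92 and 1.70, close together and both above 0, but its adjusted p was 0.0594 (SE 0.50) and it was not called. It was called in several other fits, with an adjusted p of 0.04958 without the dye term and of 0.005095 with group means. Akr1c18 was at -0.998 without replicate 2 and lost its call.

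Conjugating enzymes differed by family. All 9 sulfotransferases called among 14 tested were female-specific (median log2 ratio -1.60), and beside the genes given above these were Sult3a2 (-4.77), Sult1a1 (-1.68), Sult1d1 (-1.52) and Sult1c2 (-1.04). All 6 glucuronosyltransferases called among 13 were male-specific (median 0.23). They belong to the Ugt2 cluster of chromosome 5 and lay in a narrow range, from Ugt2b36 at 0.72 to Ugt2b5 at 1.25. Ugt2b5 had 1.38 and 1.12 and Ugt2b1 1.03 and 1.21 on replicates 1 and 2. All 4 flavin monooxygenases called among 5 were female-specific, with Fmo4, Fmo1 and Fmo2 as neighbours on chromosome 1. Fmo2 had -2.06 and -2.12 (fitted -2.09, SE 0.12, adjusted p = 0.0002). Without replicate 1 the call of Sult1c2 was lost (-0.85), and without replicate 2 those of Sult3a2 (-4.23), Fmo1 (-0.84) and Fmo4 (-0.46) were. Whether such shares of a family differ from those of other families was not tested, and close copies do not count as separate observations.

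Of 25 glutathione S-transferases tested, 4 were male-specific and 4 female-specific. Gstp2 and Gstp1 had the largest male-specific ratios, 15.8-fold and 10.0-fold. Gstt3, a theta class enzyme, had -1.99 and -1.48 on replicates 1 and 2 (fitted -1.74, SE 0.22, adjusted p = 0.00309). Gsta1 and Gsta2, alpha class enzymes induced by oxidants, had 0.88 and 3.16, and 0.74 and 3.02. Both were far higher on replicate 2 than on replicate 1 and were not called (adjusted p = 0.0804 and 0.0844). Gsta2 was called without replicate 1 (2.95), and both genes were called with group means (adjusted p = 0.007602 and 0.008625). The calls of Mgst3 (-0.71 without replicate 1), Gstt1 (-0.46 without replicate 2) and Gstm1 (0.78 and 0.72 without replicates 1 and 2) were lost where an array was left out.

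Carboxylesterases, which hydrolyse lipid esters and drugs, formed blocks along chromosome 8. Of 15 genes in the cluster, 7 were male-specific and 3 female-specific (median log2 ratio 0.50). Ces1b, Ces1c and Ces1d, adjacent at one end, were fitted at -0.68, -0.84 and -0.70. Ces1e, beyond them, was male-specific at 0.98. The Ces2 and Ces3 genes that were called were all male-specific, from Ces2a at 0.70 to Ces2b at 1.45. Ces4a, at the other end, had 3.53 and 2.57 on replicates 1 and 2 (fitted 3.05, SE 0.40, adjusted p = 0.00352). Without replicate 2 the calls of Ces1b (-0.50), Ces1d (-0.54), Ces2a (0.54) and Ces2b (1.24) were lost, and Ces2b lost its call also without replicate 1 (1.67).

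Among 27 transporters of organic anions and cations tested, 3 were male-specific and 5 female-specific. The Slc22a group of 4 genes on chromosome 19 held both. Slc22a28 had 0.84 on each array (SE 0.11, adjusted p = 0.00401) and lay between Slc22a27 and Slc22a29, which were more than 16-fold higher in F8. Slc22a16, a carnitine transporter, had 2.86 and 2.41 on replicates 1 and 2. Slco1a4, an uptake transporter for bile acids and drugs, had -2.03 and -1.45, whereas its neighbour in the family, Slco1a1, was male-specific with 0.55 and 0.78. Of 41 ABC transporters tested, 3 were called in each direction. Abcd2, a peroxisomal transporter of very long chain fatty acids, had -3.30 and -4.16 (fitted -3.73, SE 0.35, adjusted p = 0.00105), and Abcg2, the drug and urate exporter, 1.26 and 1.32. The drug exporters Abcb1a and Abcb1b were called in opposite directions, at -1.13 and 0.71. Without replicate 1 Slco1a1 was at 0.74, Abcb1b at 0.46 and Abcg3 at -1.01, and without replicate 2 Slco1a1 was at 0.59 and Abcg3 at -0.48, in each case without a call.

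All 8 major urinary proteins tested were male-specific, with a median log2 ratio of 2.22. These proteins are made in the liver, carry scents and are excreted in urine. The lowest ratio was that of Mup2 (1.77 and 0.84 on replicates 1 and 2). Its call was lost without replicate 1 (1.28) and without replicate 2 (1.33). It was also lost without the dye term and with the slide as a block (adjusted p = 0.05969). Mup21 had 2.82 and 2.42 (fitted 2.62, SE 0.21, adjusted p = 0.000594). Mup5 had 2.44 and 2.18, and its call was lost without replicate 2 (2.15). These genes are nearly identical, and the split between them is uncertain. Of 9 genes of the Klk1 kallikreins tested, tissue proteases whose sequences are also alike, 7 were male-specific, from 0.67 to 0.88 (Klk1b22). Klk1 itself lost its call without either array (0.81 without replicate 1 and 0.76 without replicate 2). In the Nat8 family 2 of 6 were male-specific, Nat8f5 and Nat8, the latter with 2.65 and 3.45.

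**Figure D4:**
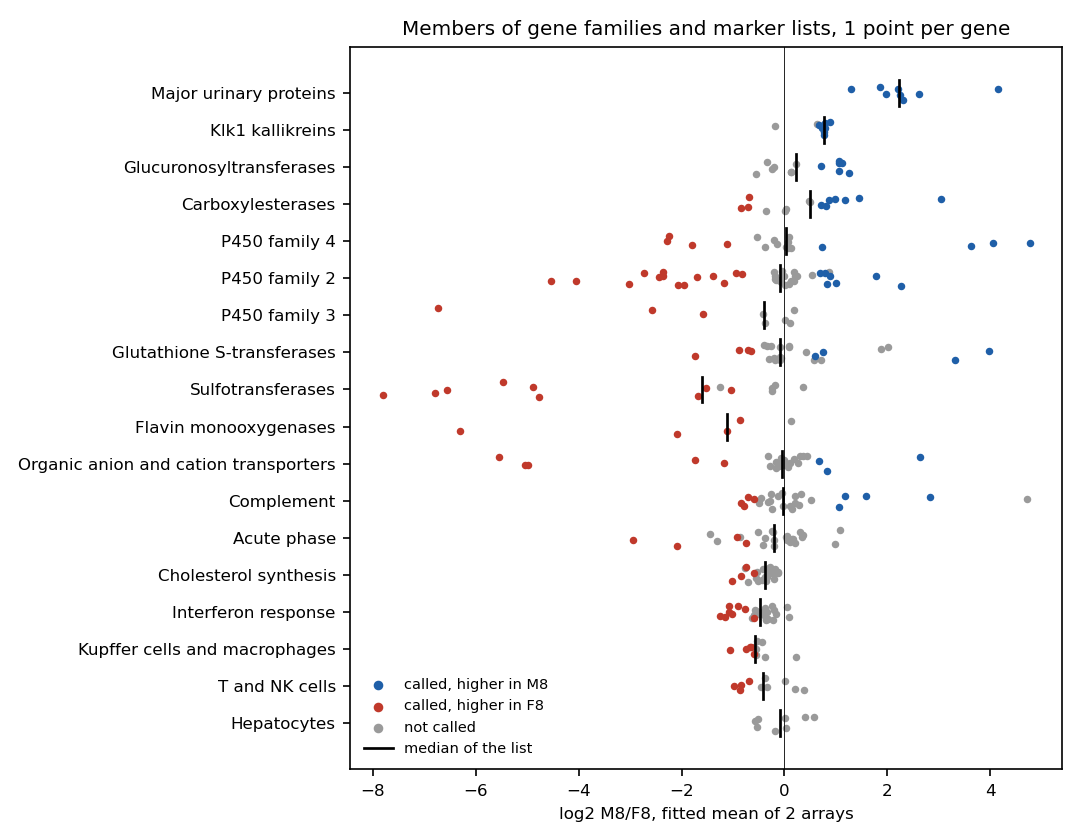
Log2 M8/F8 of the genes of 18 families and marker lists, 1 point for each gene tested, blue where called higher in M8, red where called higher in F8 and grey where not called, with the median of the list as a bar. The major urinary proteins (median 2.22) lie wholly above 0, and the sulfotransferases (median -1.60) spread furthest below it.

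Of 20 genes of the GH pathway tested, 3 were female-specific and none male-specific (median log2 ratio -0.34). Cux2, a homeobox repressor known as a female-specific liver factor, had -5.21 and -4.74 on replicates 1 and 2 (fitted -4.98, SE 0.23, adjusted p = 0.000118), a 31.5-fold difference, and was well above background in M8 on 1 array only. Prlr, the prolactin receptor, had -1.61 and -1.75 (fitted -1.68, SE 0.12, adjusted p = 0.000439). Igfals, which stabilizes circulating IGF1, had -0.47 and -0.75, and lost its call without replicate 2 (-0.57). Igf1 was at -0.29 and -0.70, with an adjusted p of 0.000474 but a difference of 1.41-fold. The GH receptor gene Ghr (0.27), Jak2 (0.02), Stat5a (-0.16) and Stat5b (-0.02) were not called. The immediate targets of GH signalling Socs2 (-0.04 and -0.98), Cish (0.19 and -1.38), Bcl6 (0.04 and 1.499) and Egfr (0.31 and 1.39) were not called by the probe of highest signal. The other 2 probes of Egfr, the receptor of epidermal growth factor, were called male-specific at 1.17 and 1.24, with 1.28 and 1.36 on replicate 1, and the other 2 probes of Lepr, the leptin receptor, female-specific at -0.69 and -0.71, against -0.47 without a call by its brightest probe. Igfbp3 (-0.37 and -0.96) was called without replicate 1 (-1.005) and with group means (-0.64).

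Of 9 regulators that the study picked on these samples for their sex differences, 8 were called, which is not independent evidence of their direction. Tox, an HMG box factor, had -2.77 and -2.79 on replicates 1 and 2. Trim24, a nuclear receptor cofactor, had -2.07 and -1.94, and Jazf1, a zinc finger cofactor, -1.64 and -2.11. Id1, an inhibitor of basic helix-loop-helix factors, had -1.20 and -1.14. Ybx2, a germ cell RNA binding protein, was at 0.29 and 0.13 and was the one not called. Ihh, a hedgehog ligand, was male-specific with 1.41 and 1.14, and Klf17 with 1.09 and 1.16. Cdx4 was not well above background in M8 and was at least 1.71-fold higher in F8. Among 35 liver transcription factors, Pparg (1.01 and 0.59) alone was male-specific (2.86%, against 2.67% of all genes). The estrogen receptor gene Esr1 (-1.43 and -1.57, adjusted p = 0.00116), Onecut2 (-1.09 and -0.60) and Nr1i3, which encodes the receptor CAR (-0.50 and -0.74), were female-specific. Another probe of Nr1i3 was at -0.53 and was not called. Calls were lost without replicate 1 for Pparg (0.61), without replicate 2 for Pparg (0.98) and Klf17 (0.88), and on leaving out either array for Cdx4 (adjusted p = 0.0621 and 0.166).

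The core of the site that STAT5 binds, TTCNNNGAA, was looked for in the RefSeq windows from 250 bases before to 50 bases after each gene start. The word reads the same on both strands. It was present in 42 of 375 female-specific genes with a window (11.2%), in 19 of 284 male-specific genes (6.69%), in 935 of 10782 genes tested (8.67%) and in 2726 of all 32851 windows (8.30%). These shares are descriptions and were not tested, and a match is no evidence of binding. Of the 12 genes with the largest female-specific ratios, 9 had a window and 3 held the word, Sult3a1, Slc22a26 and A1bg, and among the 12 largest male-specific genes 1 of 5 did, Nox4. The 150 bases before the gene start are shown for the former 3 and for Hsd3b1, which also held it, with the word in capitals. The strand is plus for Sult3a1 and minus for the others, and the word begins at -109 in Sult3a1, -84 in A1bg, -141 in Slc22a26 and -122 in Hsd3b1 from the gene start (GRCm38.p6).
Sult3a1, chr10:33857572-33857721: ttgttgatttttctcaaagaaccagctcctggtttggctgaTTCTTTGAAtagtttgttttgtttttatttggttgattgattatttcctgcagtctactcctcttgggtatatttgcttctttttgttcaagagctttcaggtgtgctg
A1bg, chr15:60921271-60921420: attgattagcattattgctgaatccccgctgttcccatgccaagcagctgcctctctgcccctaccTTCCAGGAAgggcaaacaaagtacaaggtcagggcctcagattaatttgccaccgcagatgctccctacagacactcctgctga
Slc22a26, chr19:7802668-7802817: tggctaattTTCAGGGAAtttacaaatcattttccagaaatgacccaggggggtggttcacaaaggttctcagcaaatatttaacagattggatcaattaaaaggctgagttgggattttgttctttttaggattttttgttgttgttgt
Hsd3b1, chr3:98859795-98859944: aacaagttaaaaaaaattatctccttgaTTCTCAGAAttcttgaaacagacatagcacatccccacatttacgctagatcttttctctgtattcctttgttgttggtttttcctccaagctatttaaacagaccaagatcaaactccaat

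Among 24 genes of cholesterol synthesis, 4 were female-specific and none male-specific, and all 24 ratios were below 0 (median log2 ratio -0.37). Hmgcs1, which makes a precursor of mevalonate, had -0.88 and -0.81 on replicates 1 and 2. Fdft1, the squalene synthase, had a fitted ratio of -0.59, just past the threshold, and another of its probes, at -0.50, was not called. Both calls were lost without replicate 1, where Hmgcs1 was at -0.86 and Fdft1 at -0.45, and that of Hmgcs1 also without replicate 2 (-0.82). Elovl3, male-specific, was the only gene called among 21 of lipogenesis (4.76%, against 2.67% of all genes). Of 27 other targets of PPARalpha tested, a list that holds no Cyp4a gene, Acot3 and Cd36 were female-specific (7.41%, against 3.75% of all genes). Acot3, an acyl-CoA thioesterase of peroxisomes, had -3.38 and -3.77 (fitted -3.57, SE 0.20, adjusted p = 0.000189), and its neighbours Acot4 (-2.07 and -1.94) and Acot5 (-0.68 and -1.24) were female-specific as well. Among 26 genes of lipid uptake and lipoproteins, Lpl, the lipoprotein lipase, was male-specific with 0.84 and 1.16. Vldlr, the receptor of very low density lipoproteins, had -2.47 and -1.13 and lost its call without replicate 1 (-1.20).

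In amino acid metabolism 1 of 29 genes tested was male-specific and 6 were female-specific (median log2 ratio -0.38). Csad, an enzyme of taurine synthesis, had 1.64 and 1.96 on replicates 1 and 2 (fitted 1.80, SE 0.17, adjusted p = 0.000989). Got1, the cytosolic aspartate aminotransferase, had -1.86 and -1.46. Mat1a, which makes S-adenosylmethionine in liver, had -1.37 and -1.39, and Oat, the ornithine aminotransferase of pericentral hepatocytes, -1.33 and -1.28. The others were Cth (-0.89), Hpd (-0.76) and Gls2 (-0.62). Cth was at -0.94 and -0.84 and Gls2 at -0.49 and -0.75 without replicates 1 and 2, without a call. Gls2 also lost its call without the dye term (adjusted p = 0.1009) and with the slide as a block (adjusted p = 0.08408). Of 18 Wnt targets and pericentral genes, 4 were female-specific (Oat, Lect2, Slc1a2 and Nkd1), none male-specific, and the median was -0.30. Another probe of Nkd1 was at -0.32 and was not called, against -0.71 by the brightest probe. Slc1a2, a glutamate transporter next to central veins, had -0.70 and -0.82, and lost its call without replicate 2 (-0.66). None of 25 genes of glucose metabolism was called by limma at the thresholds used. Of 17 clock genes, Per1 was female-specific (-1.71 and -0.69), and without replicate 1 it was at -0.63 without a call. Among 30 genes of mitosis and replication, Ccne1 (0.61 and 0.96) was male-specific (3.33%). Ccnd1 (-1.46 and -2.30) and Top2a (-0.40 and -1.83) were female-specific (6.67%). The shares of all genes tested were 2.67% and 3.75%. Without replicate 2 the calls of Ccne1 (0.60), Ccnd1 (-1.50) and Top2a (-0.39) were lost, and without replicate 1 Top2a was at -1.85. Top2a also lost its call with the slide as a block (adjusted p = 0.06563) and with group means (adjusted p = 0.07108), among other fits.

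Plasma proteins of defence divided within the complement system. Of 25 complement genes tested, 4 were male-specific and 4 female-specific (median log2 ratio -0.02). The male-specific genes all encode parts of the terminal pathway, which forms the membrane pore. C6 had 2.91 and 2.74 on replicates 1 and 2 (fitted 2.83, SE 0.14, adjusted p = 0.000152), C9 1.63 and 1.54, C8a 1.16 and 1.21, and C8b 0.90 and 1.24. The female-specific genes act earlier in the cascade or regulate it: Mbl2, a lectin that starts the cascade, had -0.68 and -1.01, C3, its central component, -0.36 and -1.22, Cfp, properdin, -0.50 and -0.92, and C1qa -0.62 and -0.57. The call of C3 depended on the dye term, without which its adjusted p was 0.3868. Cfp was at -0.50 without replicate 2 and C1qa at -0.51 without replicate 1, both without a call. Cfd, complement factor D, which adipocytes make, was not well above background in F8 and was not called (adjusted p = 0.1153). It was called with the replicate number as a block (adjusted p = 0.04242) and with group means (adjusted p = 0.009649). Of 26 acute phase genes, 4 were female-specific and none male-specific. Hamp2, a hepcidin gene, had -2.43 and -3.45, Orm3, an orosomucoid, -2.18 and -2.02, Hamp, the iron hormone hepcidin, -0.63 and -1.21, and Apcs, serum amyloid P, -0.81 and -0.68. Hamp lost its call without replicate 1 (-0.95), without replicate 2 (-0.90) and without the dye term, and Apcs without replicate 1 (-0.48) and without the dye term. None of 24 coagulation genes was called by limma at the thresholds used.

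Every call among the interferon response genes and the markers of macrophages, MHC class II and T and NK cells was female-specific. Of 26 interferon response genes tested, 8 were female-specific and none male-specific, with a median log2 ratio of -0.48. Cxcl9, a chemokine that draws T cells, had -1.14 and -1.36 on replicates 1 and 2 (fitted -1.25, SE 0.19, adjusted p = 0.00661). Gbp3, a guanylate binding protein, had -1.23 and -1.08, and 5 adjacent genes of its cluster on chromosome 3 (Gbp5, Gbp7, Gbp3, Gbp2b and Gbp2) were all female-specific. Cxcl10 had -1.003 and -1.16 and Ifit1 -0.95 and -1.20. Of 12 markers of Kupffer cells and macrophages, 5 were female-specific (Marco, Lyz2, Timd4, Adgre1 and Clec4f) and none male-specific, with a median of -0.57. Their summed signal was 57722 and 48866 in the M8 pools and 78655 and 69048 in the F8 pools of replicates 1 and 2. With 2 pools of each sex such a gap says little, since sums also stood apart in lists without a call (given below). Of 7 genes of MHC class II, H2-Ab1 (-0.997 and -0.69) and Cd74 were female-specific, and the sums were 6929 and 5658 in M8 and 11345 and 8201 in F8. Of 10 markers of T and NK cells, 4 were female-specific (among them Gzmb, Cd3g and Ccl5), but the sums overlapped, at 2250 and 2518 in M8 and 2294 and 2596 in F8. In bulk liver RNA, fewer cells of a type and less RNA per cell cannot be told apart. The part of these cell markers in the ratios of the interferon response genes was not tested.

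Many of these immune calls rested on both arrays. The ratio of Lyz2 was -1.25 and -0.27 on replicates 1 and 2, or -1.21 without replicate 2. Without replicate 1 the calls of Lyz2 (-0.30), Gbp2 (-0.74), Gbp2b (-1.16), Gbp5 (-0.98), Ifit3 (-0.98), Gzmb (-0.76) and Cd74 (-0.50) were lost. Without replicate 2 those of Cxcl9 (-1.09), Cxcl10 (-0.79), Ifit1 (-0.74), Ifit3 (-0.81), Zbp1 (-0.53), Gbp2 (-0.81), Gbp2b (-1.06), Gbp5 (-0.91), Marco (-0.89), Timd4 (-0.49), Adgre1 (-0.41), Clec4f (-0.36) and Cd74 (-0.68) were lost. Another probe of Adgre1 was at -0.56 on both arrays together and was not called. Gbp3, Gbp7 and Cd3g kept the call without either array. Gbp7 had -1.06 and -0.97 (adjusted p = 7.33e-05).

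Few markers of other cell types were called. None of 8 hepatocyte markers was called (median log2 ratio -0.09), and all 8 were bright enough to be tested, with a summed signal of 883609 and 671780 in M8 and of 791622 and 841334 in F8. Albumin (Alb) was at -0.01 and -1.13 on replicates 1 and 2 (fitted -0.57), just under the threshold, and it was called without replicate 1 (-0.68). No gene of the B lymphocyte, neutrophil, sinusoidal endothelium or bile duct lists was called, with 6, 6, 11 and 7 tested. The sums of each list still stood apart. B lymphocyte sums were lower in M8 on replicates 1 and 2 (2713 and 3181, against 3342 and 3882 in F8). Neutrophils (1242 and 1333, against 1529 and 1541) and sinusoidal endothelium (37021 and 35287, against 41490 and 38548) were likewise lower in M8. Bile duct sums were higher in M8 (5363 and 5968, against 4327 and 4214). In the erythroid list Alas2, the first enzyme of heme synthesis in red cells, was male-specific with 1.78 and 1.99 (adjusted p = 0.000725) among 4 genes. Ctrb1, a pancreatic protease gene, was male-specific at 0.58 and 0.61. Its ratio was just past the threshold, and its call was lost without replicate 1 (0.72), without replicate 2 (0.46) and with the replicate number as a block (adjusted p = 0.05837).

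Some genes were well above background in a single sex, and their ratios are given as lower bounds. This was so for 20 male-specific and 25 female-specific genes. Capn8, a calpain protease, was at least 3.10-fold higher in M8 (adjusted p = 0.000238). Meig1, a gene of spermatid development, was at least 2.08-fold higher (adjusted p = 0.000325), Clec2g, a lectin, at least 1.95-fold (adjusted p = 0.0234) and Sdr16c5, a retinol dehydrogenase, at least 1.91-fold (adjusted p = 0.00118). In F8 Cga, the alpha subunit of the pituitary glycoprotein hormones, was at least 2.30-fold higher (adjusted p = 0.000147). Pygo1, a Wnt cofactor, and Tnfaip8l3, a carrier of lipid second messengers, were each at least 1.54-fold higher (adjusted p = 0.00169 and 0.00511). Of the called genes given elsewhere in this section, Cyp2a22, Jazf1, Gbp5 and Top2a were well above background in M8, and Slc22a16 and Klf17 in F8, on 1 array only. Clec2g lost its call on leaving out either array (adjusted p = 0.139 and 0.125 without replicates 1 and 2), and Tnfaip8l3 without replicate 1 (adjusted p = 0.0543).

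A minority of called genes lay in runs of the same direction. Among tested genes in RefSeq order, runs of at least 3 adjacent male-specific genes numbered 10 and held 40 of the 361. Such runs of female-specific genes numbered 16 and held 63 of the 507. Whether this is more than a random order of the genes would give was not tested. The longest were the 8 Cyp2c genes and the 8 major urinary protein genes, followed by the 6 Cyp2b, Cyp2a and Cyp2g genes and by 6 Klk1 kallikreins. Most runs were of related genes, whose probes may share targets. Some runs joined genes of different families. Lratd2, 9930014A18Rik and A1bg on chromosome 15, and Slc25a27, Cyp39a1 and Rcan2 on chromosome 17 were female-specific. Slc25a33, Spsb1 and H6pd on chromosome 4 were male-specific.

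The adult difference was set beside the sex ratios of younger mice, which share no pool with M8/F8. At 4 wk 208 of 13084 genes tested were called in M4/F4 (1.59%), and at 3 wk 69 of 13340 in M3/F3 (0.517%). Of the 361 male-specific genes, 54 had the same call at 4 wk and 11 at 3 wk, and of the 507 female-specific genes 78 and 14. The median log2 ratio of the male-specific genes was 0.04, 0.32 and 1.07 at 3, 4 and 8 wk, and that of the female-specific genes -0.08, -0.30 and -0.86. As the genes were chosen at 8 wk, the medians describe them and their size at 8 wk is no result. The difference itself was tested in the same limma fit. M8/F8 differed from M4/F4 for 168 of 13672 genes (1.23%) and from M3/F3 for 523 of 13792 (3.79%). Among the male-specific genes 77 and 202, and among the female-specific genes 76 and 228 were called with a larger ratio at 8 wk than at 4 and at 3 wk, a direction that the choice of the genes at 8 wk largely fixes. The counts over all genes fell to 86 and 326 without replicate 1, and to 108 and 279 without replicate 2.

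**Figure D5:**
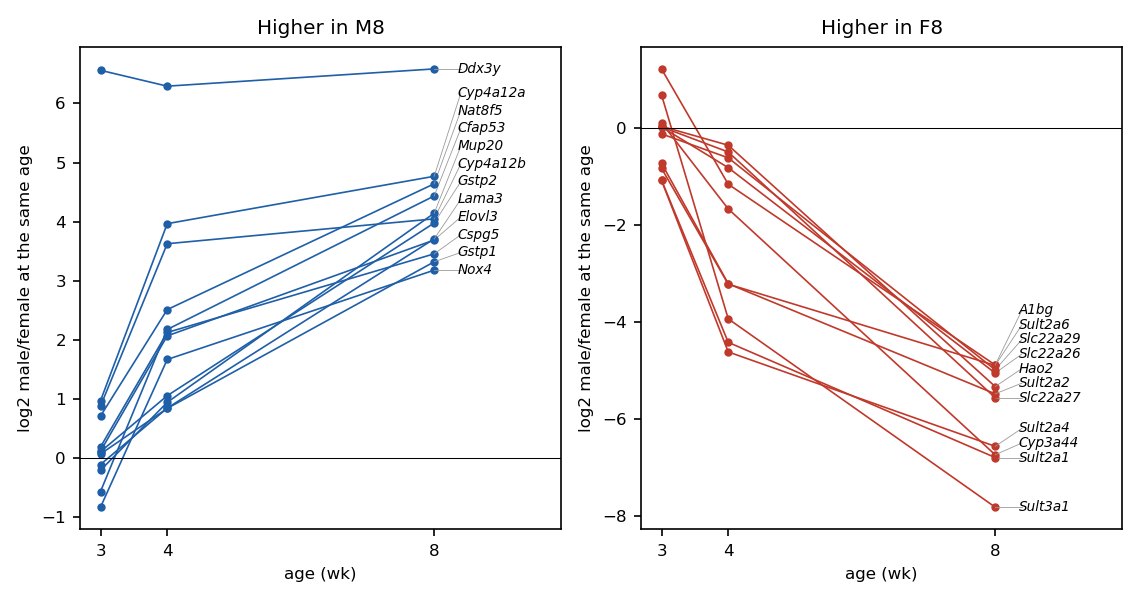
Log2 ratio of male over female liver at 3, 4 and 8 wk for genes with the largest ratios at 8 wk, 12 higher in M8 and 11 higher in F8, each point the fitted mean of 2 arrays. Ddx3y is high at all ages, Cyp4a12a and Cyp4a12b are near their adult ratio at 4 wk, and Cyp3a44, Hao2 and the 3 Slc22a genes stand near 0 at 3 wk.

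The genes with the largest adult ratios reached them at different ages. Cyp4a12a had log2 ratios of 0.97, 3.97 and 4.77 at 3, 4 and 8 wk. Its 4 wk ratio was called and the difference from 8 wk was not. Sult2a1 had -1.07, -4.41 and -6.79 and Sult2a4 -1.07, -4.61 and -6.56, with calls at 4 wk and a called difference from 3 wk. Cyp3a44 stood at 0.11, -1.66 and -6.73, and its adult ratio differed from both younger ages, by -5.07 from 4 wk (adjusted p = 0.005208) and by -6.85 from 3 wk. Mup20 stood at -0.20, 0.94 and 4.14, and differed from 4 wk by 3.20 (adjusted p = 0.01286). Slc22a27 and Slc22a29 stood at -0.49 and -0.61 at 4 wk, without a call, and differed from 4 wk by -5.06 and -4.37. Cyp4a14, Cyp4a10 and Cyp4a31 were at 1.101, 0.73 and 0.64 at 4 wk, without a call, and the difference from their female-specific adult ratios was called. The Y chromosome gene Ddx3y was at 6.56, 6.29 and 6.58.

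Only 3 genes called at 8 wk were called in the opposite direction at a younger age by the same thresholds, all at 3 wk. A1bg was male-specific at 3 wk (1.22), and female-specific at 4 wk (-1.15) and 8 wk (-4.88). Dnajb11, a chaperone of the endoplasmic reticulum, was at -0.83 at 3 wk and had 0.52 and 1.38 on replicates 1 and 2 at 8 wk (fitted 0.95, SE 0.20, adjusted p = 0.0232). Unc93a, a membrane protein, was at -0.60 at 3 wk and had 0.64 and 0.79 at 8 wk (fitted 0.72, SE 0.15, adjusted p = 0.0205). Dnajb11 lost its call at 8 wk without replicate 2 (0.48), and Unc93a without replicate 1 (0.83) and without replicate 2 (0.60). Unc93a also lost its call with the slide as a block (adjusted p = 0.05571). Igfbp2, an IGF binding protein, was called female-specific at 3 wk (-1.22) and 4 wk (-0.60) but had 0.57 and 0.40 at 8 wk, under the threshold, and its adult ratio differed from both.

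Each sex at 8 wk was also compared with itself at 3 wk, on other arrays with RNA of the same groups of M8 and F8 mice. Whether the pools were the same is not stated in the study's methods. These values are set beside M8/F8 only as a description. Sult2a1 had a log2 ratio of -6.72 in M8 over M3 and -1.69 in F8 over F3. Cyp3a44 had -6.46 and 0.36, and Cyp2b9 -3.97 and 1.27. Among male-specific genes, Mup20 had 4.41 in M8 over M3 and 1.15 in F8 over F3, and C6 2.93 and 0.11. Ces4a had 0.05 and -3.15, that is, little difference in male liver and a lower signal in adult than in young female liver. Cspg5 had 1.74 and -1.68 and Lama3 2.26 and -1.55, with calls in both sexes and opposite signs. Sult3a1 (-5.81 and 3.88) and A1bg (-4.74 and 1.99) were the reverse of these.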

How the data were processed

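Log2 ratios of M8 over F8 were computed from the deposited log10 ratios (LogRatio) of the scanner files, which the authors' Agilent Feature Extraction software gives as red over green after subtracting the local background and normalizing the dyes by a linear and a LOWESS step. Arrays were turned by the dye labels, control spots left out, and spots of each of 39429 probes averaged. Processed and median signals, deposited as intensity, gave the levels, the lower bounds and the background flags. The deposited series table holds the same log10 ratios.

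All 14 arrays were fitted with limma 3.58.1 in R 4.3.3, with a dye term and Benjamini-Hochberg adjustment over all probes and 7 comparisons. A gene, of which 19751 had a probe, was read by the probe of highest mean signal. Lower bounds used normexp (offset 50), loess and Aquantile. Scripts were tested on simulated data. Named genes were the 12 largest ratios in each direction above background in both sexes and with the same sign on both arrays. Also named were the 5 largest lower bounds in each direction and up to 3 called members of each list in each direction. Members of the Y, X, GH and regulator lists, called transcription factors, and genes of opposite call at a younger age were added. Further members of families and gene clusters, the olfactory receptor list and the genes of the closing section were picked after their values were seen. Some genes are not reported here. The members and lists were chosen with earlier results of these data known.

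Same-numbered sex comparisons deviated together (correlations of 0.256 for M8/F8 with M4/F4, 0.113 for M8/F8 with M3/F3 and 0.122 for M4/F4 with M3/F3, over 13520 genes), and in them the number, the dye and the slide coincide. Alternatives were other terms, samples, filters, adjustments, thresholds, background corrections and probes, and leaving out each array. Of 39429 probes, 13374 had no gene symbol. Positions and promoters are from RefSeq (GRCm38.p6), and no coordinates of the array design were used.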

Additional observations from a re-analysis of the deposited data

Results flagged for a closer look

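The results listed here are those where the adult sex ratio differed from a younger one by a test of the difference itself. M8/F8 differed from M4/F4 for 168 genes and from M3/F3 for 523 genes (limma, adjusted p below 0.05 and a difference above 1.5-fold). All differences below are in log2 units, adult ratio minus younger ratio, and each rests on 2 arrays at each age.

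Among the genes with the largest adult ratios, 9 differed from 4 wk. On the male-specific side, Mup20 differed by 3.20, Gstp2 by 2.92, Lama3 by 2.86, Gstp1 by 2.48 and Cspg5 by 1.33. On the female-specific side, Cyp3a44 differed by -5.07, Slc22a27 by -5.06, Slc22a29 by -4.37 and A1bg by -3.73.

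The difference from 3 wk was called for more of them. Male-specific genes differed by 4.35 (Mup20), 4.01 (Nox4), 3.93 (Nat8f5), 3.87 (Gstp2), 3.82 (Lama3), 3.80 (Cyp4a12a), 3.27 (Cspg5) and 3.25 (Gstp1). The sulfotransferases Sult3a1, Sult2a1, Sult2a4, Sult2a2 and Sult2a6 differed by -8.50, -5.72, -5.48, -4.75 and -4.06. The other female-specific genes were Cyp3a44 (-6.85), A1bg (-6.10), Slc22a27 (-5.58), Slc22a26 (-5.07) and Slc22a29 (-4.86). Dnajb11 and Unc93a, whose 3 wk ratio was called in the opposite direction, differed by 1.78 and 1.32.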

How the results depend on the processing

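With the replicate number as a block beside the dye term, 365 genes were higher in M8 and 523 in F8, and 162 and 545 differed from 4 and 3 wk; among 224 called genes followed singly, 221 kept the call, and Ctrb1 and Lipg were among those that did not. The M8/F8 arrays alone gave 0 calls higher in M8 and 0 higher in F8, as 2 arrays leave little information on the spread. Without a dye term 105 genes differed from 4 wk. Without a threshold on the ratio 1388 and 1563 genes were called higher in M8 and F8, and 279 and 1047 differed from 4 and 3 wk, and with a ratio above 2 or below 0.5 the calls were 202 and 194. Leaving out 1 M8/F8 array gave 317 to 335 genes higher in M8 and 350 to 531 higher in F8, and 86 to 108 and 279 to 326 genes that differed from 4 and 3 wk. Of these 224 genes, 181 kept the call without replicate 1 and 164 without replicate 2, where the lone array was assumed to vary like the others. Under the other alternatives the counts of M8/F8 calls stayed within 1.5 times those reported, the lowest with normexp and loess (283 and 372) and the highest with group means (430 and 599), and none of these 224 genes reversed its direction under any alternative run. Normexp used median signals. The cause of these shifts was not tested. Dim genes have only lower bounds.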

Other observations

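Genes outside the lists also showed large adult sex ratios, and these were picked after their values were seen. Among male-specific genes, Obp2a, an odorant binding protein of the lipocalin family, had log2 ratios of 4.33 and 4.48 on replicates 1 and 2 and was above background in F8 on 1 array only. Adgrv1, a large adhesion receptor, had 3.23 and 2.48, and Scara5, a ferritin receptor, 2.35 and 3.25. The aldehyde oxidase gene Aox3 had 1.86 and 1.93 and the small heat shock protein gene Hspb1 1.66 and 1.96. Hao1, the liver glycolate oxidase, was male-specific at 0.65 and 0.86, whereas its relative Hao2 was among the largest female-specific genes.

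Among female-specific genes, Atp6v0d2, a subunit of the vacuolar proton pump, had -3.97 and -3.75. Prom1, a membrane protein known as a progenitor marker, had -2.91 and -3.30, and Slc16a5, a monocarboxylate transporter, -2.90 and -3.10. Mfsd2a, a lysophospholipid transporter, had -2.35 and -2.60, Nt5e, the ectonucleotidase CD73, -1.86 and -2.46, and Fgl1, a secreted liver protein, -2.06 and -1.92. Alas1, the first enzyme of heme synthesis in liver, had -1.73 and -1.40, opposite to its red cell counterpart Alas2, and another of its probes was at -0.71. Sybu had -3.15 and -5.91, was above background in M8 on 1 array only, and lost its call without replicate 2 (-2.54).

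Of 1275 olfactory and vomeronasal receptor genes with a probe, 104 were bright enough to be tested, 17 of the 1275 were male-specific and 6 female-specific. A gene can pass the brightness filter through the sex in which it is high, so the share called among the 104 is not a result. Olfr1384 had 312 and 292 signal units in M8 and 75.6 and 81.3 in F8, and log2 ratios of 2.05 and 1.84. Olfr910 had 169.9 and 258 in M8 and 30.2 and 41.6 in F8, and lost its call without replicate 1 (2.67) and without replicate 2 (2.46).

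Probes without a gene symbol were called about as often as named genes. Of 5718 tested, 214 were higher in M8 and 194 higher in F8, which is 7.14%.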
